A study of Mus musculus with 45 samples.

Results

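The accessible chromatin around 28 genes of sterol synthesis and of the SREBP system was followed in mouse embryonic stem cells (ESCs) after acute removal of SOX2, OCT4 or NANOG. The genes were Hmgcs1, Mvk, Pmvk, Mvd, Idi1, Fdps, Fdft1, Sqle, Lss, Cyp51, Tm7sf2, Msmo1, Nsdhl, Hsd17b7, Ebp, Sc5d, Dhcr7, Insig1, Insig2, Srebf1, Srebf2, Scap, Stard4, Acat2, Ggps1, Fads1, Fads2 and Scd2. A peak of the deposited ATAC-seq peak set was taken as a member when its summit lay within 20 kb of the annotated 5′ end of one of these genes, which gave 177 of 184964 peaks. The genes were chosen by earlier results of these data, in which the accessibility of a peak near Hmgcs1 rose early after SOX2 loss, so values of the SOX2 line at 0.5, 1 and 2 h, counts of calls included, are given as a description, and nothing is read from them. Of the 177 peaks, 24 lay at the promoter of a member (summit within 500 bp of the 5′ end of the gene), 11 at another annotated start of a member, 15 at the promoter of another gene and 127 were distal. Each gene had between 2 and 11 peaks, the most at Scd2, and Ebp, Fdft1, Insig2 and Tm7sf2 had no peak summit within 500 bp of the 5′ end. Peaks are named here by the gene and the distance in bp of the summit from its 5′ end, negative for upstream.

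The cells carried an FKBP degron tag on SOX2, OCT4 or NANOG, through which the small molecule dTAG-13 at 500 nM leads to degradation of the tagged protein. SOX2-FKBP cells (cell line E14) were collected untreated (NT, DMSO) and after 0.5, 1, 2, 6 and 24 h, and OCT4-FKBP cells (V6.5) and NANOG-FKBP cells (E14) at NT, 2, 6 and 24 h. All groups, the NT controls included, grew without serum in medium with LIF and inhibitors of MEK and GSK3-β, and all carried the tag of their line. Each group had 2 libraries, apart from the treated NANOG-FKBP groups with 3, so that 31 libraries were used. The degraded factor and the parental cells of the OCT4 line cannot be told apart, and the times within a line share their NT libraries. Nothing in the labels says whether replicates came from separate cultures, so p-values measure only the spread between these libraries.

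Total counts in peaks ranged from 5664738 to 10887645 in the SOX2 line, from 6378962 to 17575631 in the OCT4 line and from 1817191 to 12437876 in the NANOG line. The second replicate of the treated NANOG-FKBP groups stood apart, with the lowest depth and up to 17.6% of counts on the mitochondrial genome. Of the 8 ESC marker genes examined, 7 had a promoter peak, against 2 of 5 primitive endoderm, 4 of 5 trophectoderm, 3 of 4 neural and 3 of 5 fibroblast markers. At 24 h, 0 of the ESC marker promoters gained and 2 lost accessibility in the SOX2 line (edgeR), and 2 gained and 1 lost in the OCT4 line. The primitive endoderm list had 1 gain in the OCT4 line, the neural list 1 loss in the SOX2 line, and the trophectoderm and fibroblast lists had no call in any line. Summed normalized counts at 24 h went from 312.3 in NT to 476.8 over the primitive endoderm and from 672 to 803.3 over the neural promoters in the OCT4 line, and from 208.9 to 223.1 and from 435.8 to 371.4 in the SOX2 line. The median log2 fold changes of these 2 lists in the OCT4 line, 0.52 and 0.32, stood beside 0.55 over all promoter peaks. The part of such changes in the results below was not tested.

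As background, cells make cholesterol from acetyl-CoA through the mevalonate pathway, which leads to squalene, lanosterol and then cholesterol. The transcription factors SREBP1 and SREBP2, encoded by Srebf1 and Srebf2, are held in the endoplasmic reticulum with their escort SCAP by the sterol-sensing INSIG proteins. When sterols are scarce, SCAP carries SREBP to the Golgi, where it is cleaved, and the released part binds sterol regulatory elements (SREs) in the promoters of the pathway, often beside sites for NF-Y (CCAAT) and SP1 (GC box).

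The promoters of Hmgcs1, which encodes the HMG-CoA synthase of the mevalonate pathway, and of Srebf1 are shown because they were the 2 of 24 member promoters that held the SRE letters searched for. The sequences are the 300 bases around the peak summit on the plus strand of mm10 (GRCm38), at chr13:119690018-119690317 for Hmgcs1 and chr11:60222779-60223078 for Srebf1, both upstream of the gene. Capitals mark matches on either strand to an SRE (TCACNCCAC), a CCAAT box (CCAAT) or a GC box (GGGCGG).
Hmgcs1 promoter: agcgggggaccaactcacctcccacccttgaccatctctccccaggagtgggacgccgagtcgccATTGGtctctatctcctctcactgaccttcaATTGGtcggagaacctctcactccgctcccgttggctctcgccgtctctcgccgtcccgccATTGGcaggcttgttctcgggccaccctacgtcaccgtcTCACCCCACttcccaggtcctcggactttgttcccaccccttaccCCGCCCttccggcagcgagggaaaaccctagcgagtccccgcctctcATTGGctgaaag
Srebf1 promoter: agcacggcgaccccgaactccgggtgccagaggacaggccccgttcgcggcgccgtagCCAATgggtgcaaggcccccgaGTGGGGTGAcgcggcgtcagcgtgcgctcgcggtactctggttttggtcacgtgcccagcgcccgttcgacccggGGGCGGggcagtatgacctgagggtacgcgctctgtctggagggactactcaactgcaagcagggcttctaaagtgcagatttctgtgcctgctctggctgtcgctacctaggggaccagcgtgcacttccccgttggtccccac
The Hmgcs1 window held 1 SRE match, 4 CCAAT matches and 1 GC box match. In the same window, CCAAT was found in 79.2% of the member promoters and 34.3% of the 17077 promoter peaks of the whole set with sequence, and the GC box in 79.2% and 52.7%. The SRE letters were in 8.33% of member promoters (2 of 24) and 1.35% of all promoter peaks. Over whole peaks in place of this window, these shares were 8.33% and 5.26%. These letters are a description of the sequence and mark no measured binding.

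The distal windows shown next belong to the peaks whose change at 24 h was higher after OCT4 than after SOX2 loss, described with their values further on. They lie at chr5:4107118-4107417 upstream of Cyp51 and at chr19:10169755-10170054 upstream of Fads1, both intergenic, and at chr5:28055510-28055809 in an intron of Gm26608 upstream of Insig1 (mm10, plus strand). Capitals mark matches on either strand to SOX letters (CATTGT or, as another form, CTTTGT), the octamer (ATGCNAAT) or ESRRB letters (CAAGGTCA).
Cyp51 -2522: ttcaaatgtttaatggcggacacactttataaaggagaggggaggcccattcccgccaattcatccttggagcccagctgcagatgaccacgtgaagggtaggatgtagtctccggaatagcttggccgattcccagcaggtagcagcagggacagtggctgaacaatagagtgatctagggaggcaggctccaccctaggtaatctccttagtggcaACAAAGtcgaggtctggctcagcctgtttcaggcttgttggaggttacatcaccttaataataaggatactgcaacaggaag
Fads1 -12983: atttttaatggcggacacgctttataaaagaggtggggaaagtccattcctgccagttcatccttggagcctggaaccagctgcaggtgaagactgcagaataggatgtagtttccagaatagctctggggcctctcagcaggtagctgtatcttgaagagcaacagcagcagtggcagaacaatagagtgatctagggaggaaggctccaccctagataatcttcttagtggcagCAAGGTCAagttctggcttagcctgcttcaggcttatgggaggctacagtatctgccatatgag
Insig1 -15703: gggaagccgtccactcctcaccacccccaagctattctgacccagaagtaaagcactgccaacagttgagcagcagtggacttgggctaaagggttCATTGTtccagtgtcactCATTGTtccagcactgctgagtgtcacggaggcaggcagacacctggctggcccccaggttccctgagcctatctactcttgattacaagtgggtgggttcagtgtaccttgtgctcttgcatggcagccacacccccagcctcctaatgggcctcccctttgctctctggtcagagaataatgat
The Insig1 window held 2 matches to the SOX letters and the Cyp51 window 1. In windows of this length, the SOX letters were found in 34.6% of the 127 distal members and 36.4% of all peaks over 500 bp from a start.

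Before depletion, most member promoters were among the promoter peaks with more counts. All promoter peaks were those within 500 bp of the 5′ end of any annotated gene, whether coding or not. Levels were not scaled for peak width. The median over the 24 promoters of the mean NT level was 301.3 normalized counts in the SOX2 line, 339.3 in the OCT4 line and 358.7 in the NANOG line, against 106.7, 122.5 and 119.3 over all promoter peaks. The median member promoter therefore sat at percentile 90.8, 89.8 and 91.4 of all promoter peaks in the same order of lines.

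At 0.5, 1 and 2 h after SOX2 loss, the contrasts behind the choice of the genes, the median log2 fold changes of member promoters against NT were -0.05, 0.03 and 0.06. Over all promoter peaks these medians were -0.002, 0.001 and -0.013. At 6 h the median was 0.14 for member promoters and 0.12 for all promoter peaks. After 24 h, all 24 had a positive log2 fold change, between 0.20 and 0.61, with a median of 0.40 beside 0.30 over all promoter peaks. Of these, 8 rose by the test (edgeR, adjusted p below 0.05): Mvk, Mvd and Fdps of the mevalonate pathway, Sqle, the squalene epoxidase, Hsd17b7, a sterol reductase, the regulators Insig1 and Srebf2, and the sterol carrier Stard4. Over all 16300 promoter peaks tested, 21.5% gained. The count of 8 was 2 with DESeq2, 1 in the fit of all 3 lines, 1 with GC content offsets and 17 with the replicate number as a block. Leaving out 1 library gave 0 without NT replicate 1, 2 without NT replicate 2, 1 without 24 h replicate 1 and 3 without 24 h replicate 2.

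After OCT4 loss, the median log2 fold change of the member promoters was 0.28 at 2 h, 0.35 at 6 h and 0.61 at 24 h, beside 0.13, 0.19 and 0.55 over all promoter peaks, and 23 of 24 were positive at 24 h. The 14 that passed the test at 24 h were Hmgcs1, Mvk, Mvd, Idi1, Ggps1, Sqle, Lss, Cyp51, Hsd17b7, Sc5d, Dhcr7, Insig1, Scap and Stard4, while 41.3% of all 16544 promoter peaks gained. The count was 4 with GC offsets, 7 within the OCT4 line alone and 20 with the replicate block, and leaving out a library gave 8 without NT replicate 1, 4 without NT replicate 2, 2 without 24 h replicate 1 and 16 without 24 h replicate 2. No member promoter passed the test at 24 h after NANOG loss (0 gained and 0 lost by edgeR and by DESeq2, and 0 at an unadjusted p under 0.05), with a median of 0.15 beside 0.08 over all promoter peaks.

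The share of all normalized counts that fell in promoter peaks moved with these results, from 24.7 to 24.9% in NT to 29.5 to 31.5% at 24 h in the SOX2 line and from 27.1 to 27.5% to 34.2 to 39.7% in the OCT4 line. In the NANOG line it was 25.9 to 28.7% and 24.7 to 29.8%. The median GC content was 57.8% for member promoter peaks, 56.4% for all promoter peaks and 50.7% for distal members. With GC offsets the median of the member promoters at 24 h was 0.11 in the SOX2 and 0.22 in the OCT4 line. The median of all promoter peaks with these offsets was not computed, so members and other promoters were not compared under them.

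**Figure D1:**
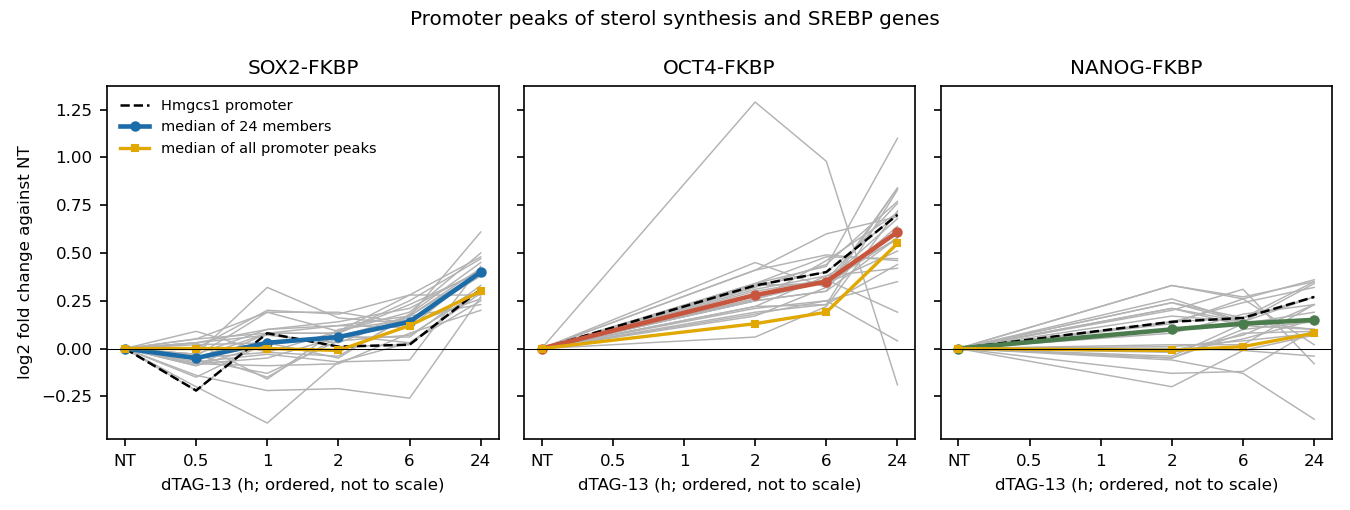
Log2 fold change against NT (y) of the 24 member promoter peaks by time of dTAG-13 (x, ordered and not to scale), with 1 panel for each line. Grey lines are single promoters, the dashed line is Hmgcs1, circles mark the median of the members and squares the median of all promoter peaks. At 24 h the members' median was 0.40 in the SOX2, 0.61 in the OCT4 and 0.15 in the NANOG line, beside 0.30, 0.55 and 0.08 for all promoter peaks.

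Among single promoters of the mevalonate enzymes, Hmgcs1 had 401.1 and 440.3 normalized counts in NT and 522.1 and 517.5 at 24 h in the SOX2 line. Both 24 h libraries lay above both NT libraries, but the log2 fold change of 0.31 ± 0.14 (SE) did not pass the test (edgeR, adjusted p = 0.12, and 0.035 with the replicate block). After OCT4 loss the levels went from 507.4 and 458.4 in NT to 933.6 and 638 at 24 h, a log2 fold change of 0.70 ± 0.25 (adjusted p = 0.0349, edgeR). That call was lost without NT replicate 1 (adjusted p = 0.0778), NT replicate 2 (0.211) or 24 h replicate 1 (0.409). It was lost too in the fit of the OCT4 line alone (0.0911) and with GC offsets, where the log2 fold change was 0.13 (adjusted p = 0.723). The 24 h replicates were far apart, and a difference in change between these lines did not pass the test (difference 0.36 ± 0.35, adjusted p = 0.713).

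The promoter of Pmvk, the phosphomevalonate kinase, had another course in the OCT4 line. Its peak held 124.7 and 125 normalized counts in NT, 291.1 and 320.9 at 2 h, 270 and 224 at 6 h, and 92.8 and 126.7 at 24 h. It was therefore higher at 2 h in both libraries (log2 fold change 1.29 ± 0.31, adjusted p = 0.00419) and at 6 h (0.98 ± 0.31, adjusted p = 0.0253), and at 24 h the change was -0.19 ± 0.33 (adjusted p = 0.745). With DESeq2, 0 member promoters passed at 6 h. It was the only member promoter to pass the edgeR test at 2 or 6 h in the OCT4 line. Without SOX2, its log2 fold change was -0.05 at 2 h and 0.45 at 24 h. This promoter was singled out after its values were seen.

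Of the later enzymes, Dhcr7, which carries out the last reduction to cholesterol, had the largest promoter change at 24 h in the OCT4 line, from 180.8 and 169.6 in NT to 440.7 and 312 normalized counts at 24 h (log2 fold change 1.1 ± 0.23, adjusted p = 0.000298). After SOX2 loss it went from 211 and 177 to 283.4 and 233.2 (0.40 ± 0.16, adjusted p = 0.0695, and 0.016 with the replicate block). The NT and 24 h libraries did not overlap in either line. The Hsd17b7 promoter, of a sterol reductase gene, rose in both, from 250.9 and 269 to 405.7 and 387.2 in the SOX2 line (0.61 ± 0.16, adjusted p = 0.00308) and from 353.1 and 272.8 to 629.2 and 482 in the OCT4 line (0.83 ± 0.21, adjusted p = 0.00242). The first call was lost without NT replicate 1 (0.0727), and the second without NT replicate 2 (0.099) or 24 h replicate 1 (0.074).

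Among the regulators, the promoter of Insig1 rose in both lines, from 396.8 and 390.8 normalized counts in NT to 498.8 and 548.6 at 24 h in the SOX2 line (0.41 ± 0.15, adjusted p = 0.0391) and from 300.9 and 374.9 to 591.5 and 559.2 in the OCT4 line (0.77 ± 0.21, adjusted p = 0.00561). The call in the SOX2 line was lost with DESeq2 (adjusted p = 0.11), in the fit of 3 lines (0.148) and without any of the NT and 24 h libraries (0.0781 to 0.232), and that in the OCT4 line without NT replicate 1 (0.0926). With GC offsets the changes were 0.12 (adjusted p = 0.585) and 0.31 (0.245). Srebf2, which encodes the SREBP that mainly drives sterol synthesis, rose in the SOX2 line, from 389 and 393.6 to 527 and 508 (0.40 ± 0.14, adjusted p = 0.0387). This call too was lost with DESeq2 (0.103), in the fit of 3 lines (0.234), with GC offsets (log2 fold change 0.11, adjusted p = 0.62) and without any of the NT and 24 h libraries (0.105 to 0.197). OCT4-FKBP cells had 540.1 and 423.3 in NT and 864 and 562.3 at 24 h (0.57 ± 0.24, adjusted p = 0.0822, and 0.0016 with the replicate block). The Scap promoter passed the test in the OCT4 line and not in the SOX2 line, with 0.72 ± 0.20 (adjusted p = 0.00727) and 0.38 ± 0.16 (adjusted p = 0.078, and 0.026 with the block). In the OCT4 line its call was lost with GC offsets (log2 fold change 0.12, adjusted p = 0.686), without NT replicate 2 (0.0891) and without 24 h replicate 1 (0.218). Srebf1 had overlapping levels in the OCT4 line, 405.3 and 278.1 in NT and 411.7 and 287.3 at 24 h (0.04 ± 0.28, adjusted p = 0.947), and in the SOX2 line went from 287.4 and 283.2 to 424.1 and 323.9 (0.39 ± 0.18, adjusted p = 0.117, and 0.011 with the block). In the NANOG line the changes of these 4 promoters ranged from -0.08 (Srebf1) to 0.35 (Srebf2), with no call.

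Over all member peaks, with 159 tested in the SOX2 line and 164 in the others, the counts for the first hours after SOX2 removal were as follows. At 0.5 h, 0 gained and 4 lost (0.158% and 3.14% of all peaks tested), at 1 h 2 gained and 5 lost (0.889% and 5.46%), and at 2 h 6 gained and 7 lost (1.46% and 7.28%). Those were the contrasts known when the genes were chosen. At 6 h, 0 gained (10 at an unadjusted p under 0.05, and 0 with DESeq2) and 8 lost, with 2.66% and 9.28% of all peaks.

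At 24 h, 35 member peaks gained and 11 lost in the SOX2 line, beside 9.17% and 14.1% of all peaks. All 11 losses and 16 of the gains were distal, and the other gains were at promoters of members or of neighbouring genes and at other starts of members. The gains were 8 with DESeq2, 7 in the fit of 3 lines, 6 without NT replicate 1, 13 without NT replicate 2, 12 without 24 h replicate 1 and 16 without 24 h replicate 2, and 10 to 11 peaks were lost when 1 library was left out. In the OCT4 line, 7 gained and 2 lost at 2 h (1.92% and 5.1% of all peaks), 10 and 5 at 6 h (4.12% and 7.97%), and 28 and 10 at 24 h (10.8% and 12.7%). The gains at 24 h were 17 without NT replicate 1, 8 without NT replicate 2 and 7 without 24 h replicate 1, and the losses at 24 h were 18 with the replicate block. All 10 losses in this line were distal, as were 5 of the gains. Of the distal members alone, 16 of 111 gained and 11 lost in the SOX2 line at 24 h, beside 7.78% and 15.3% of all non-promoter peaks, and 5 of 116 gained and 10 lost in the OCT4 line, beside 7.47% and 13.7%.

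Apart from their gene-start promoters, several members had starts that gained in both the SOX2 and the OCT4 line at 24 h. On the log2 scale their changes were 0.64 and 0.89 at Srebf1 +2079, 0.45 and 0.69 at Insig2 +4621, and 0.47 and 0.65 at Dhcr7 +7009. Of the tested peaks at other starts of members, 3 of 10 gained in the SOX2 and 5 of 10 in the OCT4 line, and of those at promoters of neighbouring genes 8 of 14 and 4 of 14, beside 21.5% and 41.3% of all promoter peaks. The 4 peaks of the last class called in both lines were Ebp +17652 at the promoter of Tbc1d25, with 0.95 and 0.65, Pmvk -17853 at that of Pbxip1, with 0.50 and 0.73, Srebf2 -19289 at that of Ccdc134, with 0.43 and 0.74, and Tm7sf2 +10500 at that of Fau, with 0.58 and 0.87. Of the gene-start promoters called in both lines, the change was 0.48 and 0.84 at Mvd, 0.47 and 0.71 at Mvk, 0.43 and 0.68 at Sqle and 0.50 and 0.69 at Stard4, again in the order SOX2, OCT4.

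Most of these calls at starts depended on the fit. In the SOX2 line, the calls at Srebf1 +2079, Insig2 +4621, Dhcr7 +7009 and the promoters of Mvd, Mvk, Sqle and Stard4 were lost with GC offsets (log2 fold changes of 0.14 to 0.34, adjusted p 0.101 to 0.547) and in the fit of 3 lines (0.0591 to 0.158). With DESeq2 they were lost at all but Stard4 (0.052 to 0.119), and each was lost without at least 3 of the 4 NT and 24 h libraries. For the OCT4 line, GC offsets removed the calls of the same starts other than Mvd (0.17 to 0.46, adjusted p 0.0679 to 0.541), and all 7 were lost without NT replicate 2 (0.0733 to 0.227). Of the peaks at promoters of neighbouring genes, Pmvk -17853, Srebf2 -19289 and Tm7sf2 +10500 lost the SOX2 call with DESeq2 (0.0735 to 0.182) and with GC offsets (0.0512 to 0.476), and the OCT4 call without 24 h replicate 1 (0.139 to 0.21). Ebp +17652 passed in the SOX2 line in every fit tried. In the OCT4 line it missed the threshold with GC offsets (0.302), with total counts (0.0642) and in the fit of that line alone (0.0767). Its log2 fold change there was 0.71 without NT replicate 1, 0.57 without NT replicate 2 and 0.37 without 24 h replicate 1.

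In the NANOG line, 0 gained and 0 lost at 2 h (0.0162% and 0.938% of all peaks; 8 higher and 7 lower at an unadjusted p under 0.05, and 0 with DESeq2), 0 and 1 at 6 h (0.0367% and 1.08%), and 1 and 4 at 24 h (0.288% and 2.25%). The gain was an intronic Hmgcs1 peak and the 4 losses were distal. A difference between the OCT4 and the SOX2 line at 24 h was tested for each peak: 3 members were higher and 1 was lower in the OCT4 line, beside 1.67% and 1.1% of all peaks.

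**Figure D2:**
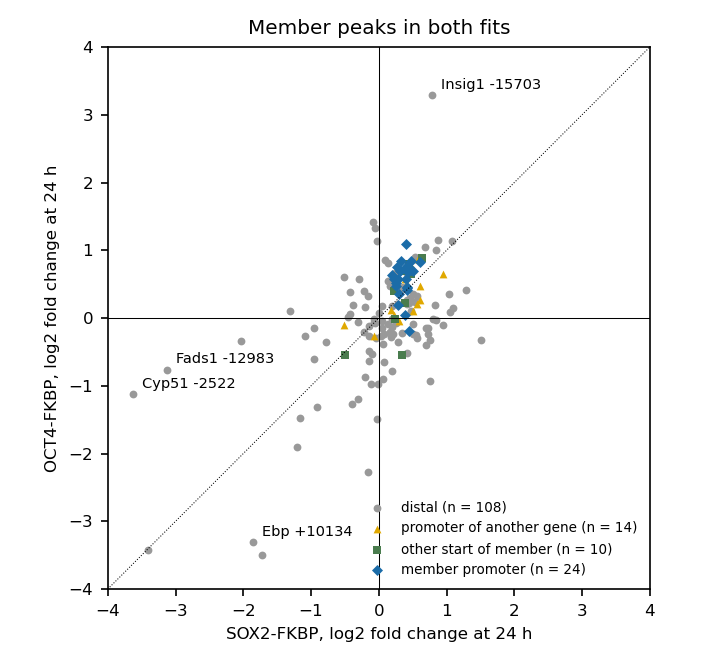
Log2 fold change at 24 h in the SOX2-FKBP line (x) and the OCT4-FKBP line (y) for member peaks tested in both fits, by class. The 4 labelled peaks are those whose change differed between the lines, and the dotted line marks equal change. The 24 member promoters all lie right of 0 on the x axis, between 0.20 and 0.61.

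Around Hmgcs1, the peak that led to the choice of these genes lay 19752 bp past its 5′ end, at chr13:119709236-119711174, in exonic sequence of Nim1k outside the coding sequence. SOX2-FKBP libraries held 53 and 62.3 normalized counts in NT, 78.4 and 87.5 at 0.5 h, 114.3 and 77.9 at 1 h, 112.2 and 140.1 at 2 h, 81.7 and 89 at 6 h, and 118.4 and 117.1 at 24 h. Its log2 fold changes were 0.53, 0.78 and 1.15 at 0.5, 1 and 2 h, the contrasts behind its choice, and 0.59 and 1.05 at 6 and 24 h. The later contrasts share the NT libraries of the earlier ones, so no test of this peak is given for the SOX2 line. In the OCT4 line the levels overlapped, at 93.5 and 58 in NT and 100 and 58.7 at 24 h (0.09 ± 0.38, adjusted p = 0.904), and in the NANOG line they were 38.8 and 36.3 in NT and 62.6, 120.7 and 30.7 at 24 h (0.69 ± 0.43, adjusted p = 0.606).

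Of the 7 peaks given to Hmgcs1, those at 10621 and 14107 bp, Hmgcs1 +10621 and Hmgcs1 +14107, held 0 to 16.4 and 2.6 to 17.2 normalized counts over the 31 libraries and were too low for a test in any line, and that at 9708 bp had a log2 fold change of 0.74 ± 0.70 at 24 h in the OCT4 line (adjusted p = 0.5) and was not tested in the SOX2 line. Closer to the gene, an intronic Hmgcs1 peak at 5515 bp was the only member to gain after 24 h of NANOG loss. It held 5.3 and 6.3 normalized counts in NT and 18.6, 30.2 and 18.4 at 24 h, without overlap (log2 fold change 1.77 ± 0.50, adjusted p = 0.0457). It missed the threshold with DESeq2 (adjusted p = 0.144) and in the fit of the NANOG line alone (0.0688), and leaving out either NT library or any 24 h library gave adjusted p-values from 0.0879 to 0.352. The level was low, and in the SOX2 line the same peak held 26 and 21.2 in NT and 14.6 and 10.4 at 24 h (-0.95 ± 0.39, adjusted p = 0.0735, and 0.024 with the replicate block). The neighbouring intronic peak at 6269 bp fell in the OCT4 line, from 10.9 and 18.1 to 4.3 and 1.5 (-2.27 ± 0.73, adjusted p = 0.0189). That call was lost with DESeq2 (0.0585) or GC offsets (0.0727) and without NT replicate 2 (0.163), 24 h replicate 1 (0.0648) or 24 h replicate 2 (0.166), and in the SOX2 line the peak was at 13 and 11.3 in NT and 10.7 and 11.3 at 24 h (-0.16 ± 0.43, adjusted p = 0.833).

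**Figure D3:**
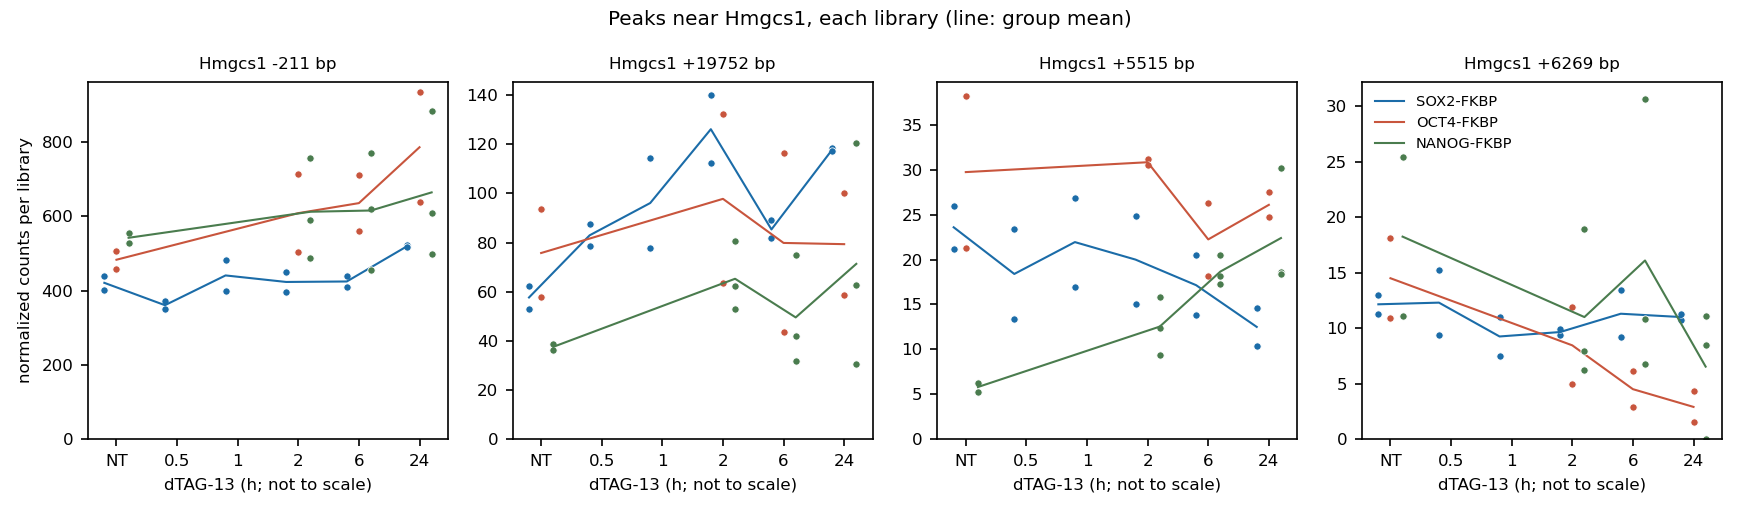
Normalized counts in each library (y) of 4 Hmgcs1 peaks by time of dTAG-13 (x, not to scale), with points for libraries, lines for group means and 1 colour for each line. In the SOX2 line the peak at +19752 bp, chosen for its early rise there, lay between 53 and 62.3 in NT and between 77.9 and 140.1 in the treated libraries. The promoter peak lay between 349.3 and 522.1 in all libraries of that line.

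The strongest loss among all members at 24 h in the SOX2 line was upstream of Cyp51, which encodes the lanosterol demethylase. The Cyp51 -2522 peak, whose sequence is printed above, held 76.4 and 79.3 normalized counts in NT, 6.4 and 12.6 at 6 h and 4.9 and 7.6 at 24 h in the SOX2 line. Both 24 h libraries were below 8, and the log2 fold change was -3.62 ± 0.35 (edgeR, adjusted p = 2.64e-10). The level after OCT4 loss first rose, from 49.9 and 60.1 in NT to 100.1 and 101.4 at 2 h (0.86 ± 0.26, adjusted p = 0.035), and at 24 h it had fallen to 29 and 21.6 (-1.12 ± 0.34, adjusted p = 0.0123). The change at 24 h differed between the lines by 2.46 ± 0.56 on the log2 scale (OCT4 minus SOX2, adjusted p = 0.00737), which missed the threshold without 24 h replicate 1 of the OCT4 line (0.0681) or of the SOX2 line (0.0758). The loss at 24 h in the OCT4 line missed it without NT replicate 2 (0.091) or 24 h replicate 2 (0.119). After 24 h without NANOG it held 41, 47.4 and 31.9, beside 54.8 and 42.7 in NT (-0.34 ± 0.31, adjusted p = 0.787).

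A peak upstream of Fads1, the fatty acid delta-5 desaturase, took a similar course. Fads1 -12983 went from 121.6 and 140.2 normalized counts in NT to 17.5 and 12.3 at 24 h in the SOX2 line (-3.12 ± 0.26, adjusted p = 6.85e-12). After OCT4 removal the level was 106 and 129.2 in NT, 151.5 and 158.6 at 2 h and 63.8 and 75.7 at 24 h, so the libraries at 2 h lay above and those at 24 h below both NT libraries. The change at 2 h did not pass the test (0.39 ± 0.21, adjusted p = 0.357) and that at 24 h did (-0.76 ± 0.23, adjusted p = 0.0139). The difference between lines at 24 h was 2.32 ± 0.37 (adjusted p = 0.000122). The loss in the OCT4 line missed the threshold with GC offsets (0.107) and without NT replicate 2 (0.134) or 24 h replicate 1 (0.161). It also fell after NANOG loss, to 71.1, 64.7 and 71.3 from 140.3 and 104.3 (-0.81 ± 0.22, adjusted p = 0.0322).

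The Cyp51 and Fads1 windows printed above resembled each other in sequence: their local alignment covered 286 columns, of which 225 (78.7%) were identical. This was noticed after the values and letters had been seen, and what follows is a description. Among the 184798 peaks with a window, 641 aligned with the Cyp51 window over at least 200 columns at 70% identity or more, 17 of them at promoters. In the SOX2 line, 502 of 541 tested peaks of this sequence family lost accessibility at 24 h, with a median log2 fold change of -2.21 (14.1% of all peaks lost). Without OCT4, the family's median was 0.39 at 2 h, with 38 of 617 gained and 4 lost (1.92% and 5.1% of all peaks). At 24 h it was -0.79, with 10 gained and 262 lost (10.8% and 12.7% of all peaks). The change at 24 h was higher in the OCT4 than in the SOX2 line at 189 of these peaks and lower at 0 (edgeR), beside 1.67% and 1.1% of all peaks. After 24 h of NANOG loss the median was -0.27, with 1 of 617 gained and 57 lost (0.288% and 2.25% of all peaks). Reads were kept at a mapping quality of at least 10. How well this told similar copies apart was not checked, so the level of a single copy is uncertain.

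**Figure D4:**
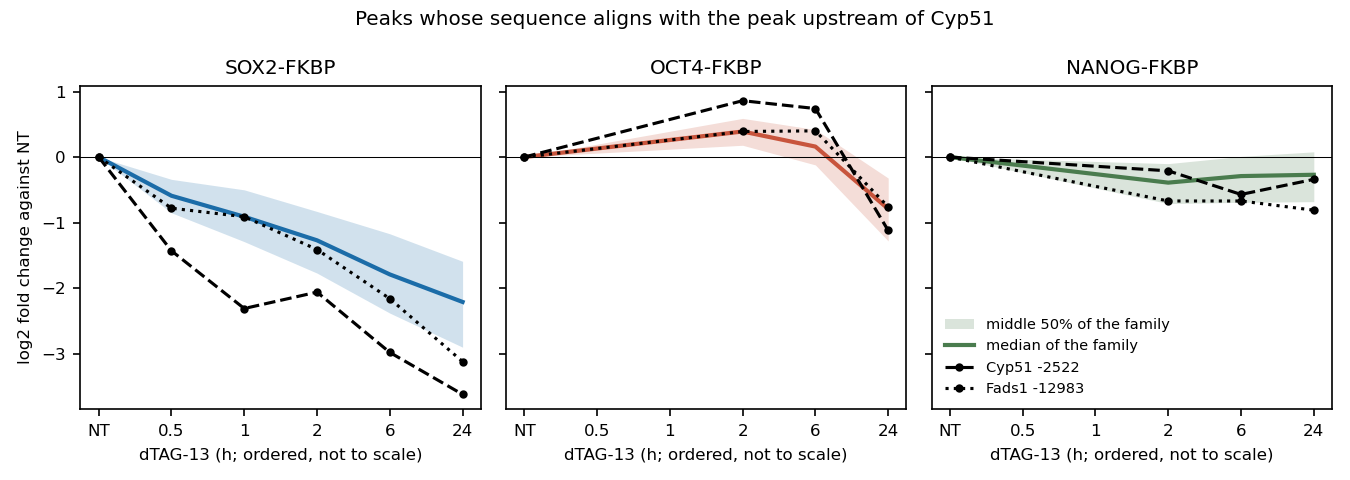
Log2 fold change against NT (y) by time of dTAG-13 (x, ordered and not to scale) for the peaks whose sequence aligned with the Cyp51 -2522 window, with 1 panel for each line. The thick line is the family's median, the band its middle 50%, and dashed and dotted lines are the Cyp51 and Fads1 peaks. The median fell to -2.21 at 24 h in the SOX2 line, and in the OCT4 line it was 0.39 at 2 h and -0.79 at 24 h.

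Upstream of Insig1, whose product retains SCAP and SREBP in the endoplasmic reticulum, the distal peak at -15703 bp rose most. OCT4-FKBP libraries held 12.5 and 9 normalized counts in NT, 44.1 and 22.4 at 2 h, 53.9 and 49.8 at 6 h, and 89.9 and 118.9 at 24 h. The NT libraries were the lowest of the line, and the log2 fold change was 3.29 ± 0.37 at 24 h (adjusted p = 1.03e-08). After SOX2 removal it went from 33 and 25.5 to 58.2 and 45.3 (0.79 ± 0.27, adjusted p = 0.033), a difference between lines of 2.46 ± 0.52 (adjusted p = 0.00391, and 0.0765 without NT replicate 1 of the SOX2 line). The rise in the SOX2 line missed the threshold with DESeq2 (0.205), in the fit of 3 lines (0.108) and without NT replicate 1 (0.0785), NT replicate 2 (0.183) or 24 h replicate 1 (0.261). The NT level differed too, at 9 to 12.5 in the OCT4 line and 25.5 to 33 in the SOX2 line. In the NANOG line the peak was at 30.7 and 26.9 in NT and at 24, 17.2 and 14.7 at 24 h (-0.55 ± 0.41, adjusted p = 0.701).

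Ebp, which encodes the sterol isomerase of the late pathway, had a distal peak that fell further after OCT4 than after SOX2 loss. Ebp +10134 went from 179.3 and 207.4 normalized counts in NT to 20.3 and 18.5 at 24 h in the OCT4 line (-3.31 ± 0.29, adjusted p = 5.81e-11), and from 123.3 and 138.7 to 35.9 and 35.9 in the SOX2 line (-1.85 ± 0.22, adjusted p = 1.72e-08). It fell in both lines without overlap of NT and 24 h libraries, and the changes differed by -1.49 ± 0.40 (adjusted p = 0.0277). That difference missed the threshold with DESeq2 (adjusted p = 0.061), and leaving out any NT or 24 h library of these lines other than NT replicate 1 of the OCT4 line gave adjusted p-values from 0.0543 to 0.127. The start nearest to this peak was that of Tbc1d25 and not of Ebp.

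**Figure D5:**
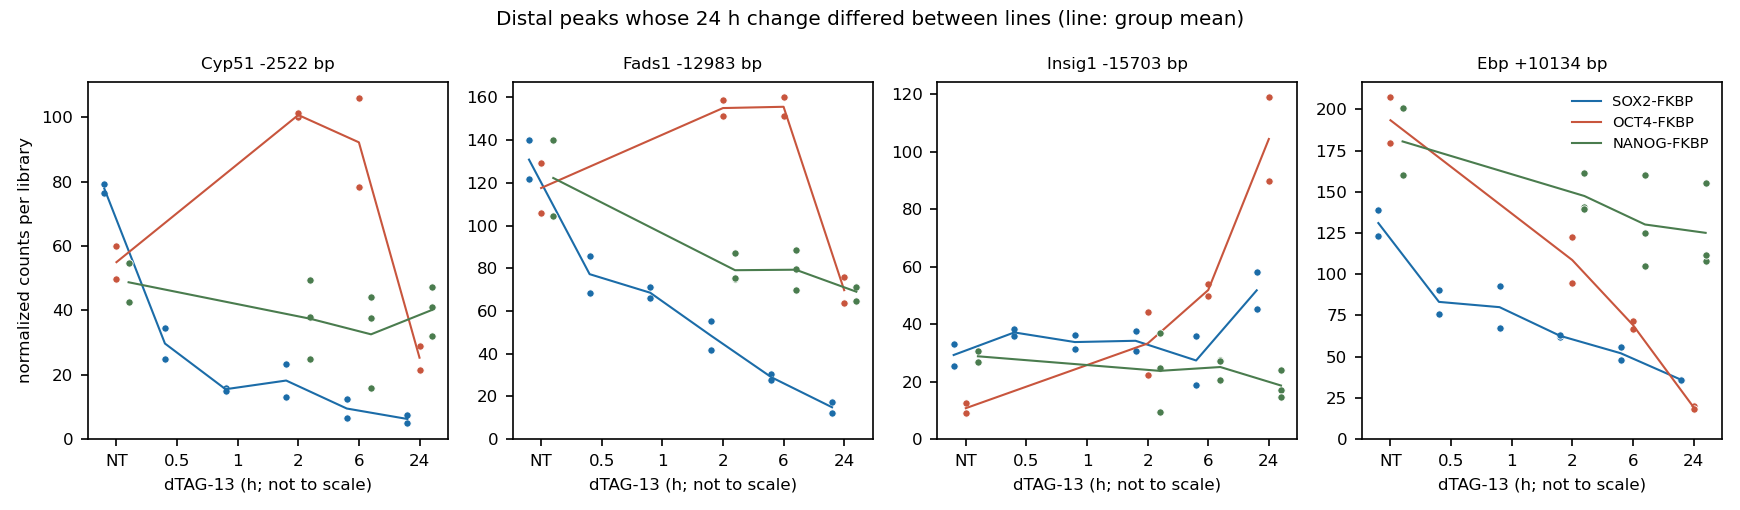
Normalized counts in each library (y) of the 4 distal peaks whose change at 24 h differed between the OCT4 and the SOX2 line, by time of dTAG-13 (x, not to scale), with points for libraries and lines for group means. At 24 h, Cyp51 -2522 held 4.9 and 7.6 in the SOX2 line and 29 and 21.6 in the OCT4 line, and Insig1 -15703 held 89.9 and 118.9 in the OCT4 line.

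Other distal peaks fell in both lines. The peak at -10118 bp of Scap, the SREBP escort, fell from 94.6 and 148.7 normalized counts in NT to 11.6 and 10.4 at 24 h in the SOX2 line (-3.41 ± 0.33, adjusted p = 2.51e-10). After OCT4 loss it fell from 157.4 and 119.1 to 10.1 and 15.4 (-3.42 ± 0.51, adjusted p = 2.33e-06). The difference between these changes was -0.03 ± 0.85 (adjusted p = 0.995), an error wide enough to hold a large difference.

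Around Sqle, the peak at -12778 bp fell to 21.7 and 15.4 from 236.9 and 188.8 at 24 h in the OCT4 line (-3.50 ± 0.45, adjusted p = 1.44e-07) and to 122.3 and 90.7 from 364.7 and 341.2 in the SOX2 line (-1.73 ± 0.21, adjusted p = 3.18e-08). It was already at 38.6 and 54.1 after 2 h without OCT4 (-2.17 ± 0.36, adjusted p = 4.02e-05), where the SOX2 line had 305.6 and 233.7. The difference at 24 h missed the threshold (-1.81 ± 0.58, adjusted p = 0.0858). In the NANOG line this peak held 303.1, 758.8 and 388.2 at 24 h, and the high value came from the shallow replicate 2. A second Sqle peak, at 18855 bp in an intron of Washc5, fell by 1.17 on the log2 scale in the SOX2 line (SE 0.17, adjusted p = 1.95e-06) and by 1.48 in the OCT4 line (SE 0.30, adjusted p = 0.000223).

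Upstream of Scd2, a stearoyl-CoA desaturase, the peak at -12716 bp fell by 24 h in both lines. In the SOX2 line it held 255.3 and 274.7 normalized counts in NT, 272.6 and 252 at 2 h and 121.3 and 107.6 at 24 h (-1.21 ± 0.16, adjusted p = 4.24e-07). OCT4-FKBP cells held 304.8 and 253.7 in NT, 235.1 and 199 at 2 h, 196.5 and 164.8 at 6 h, and 69.6 and 78.8 at 24 h (-1.91 ± 0.30, adjusted p = 4.65e-06). The libraries at 2 and 6 h lay below both NT libraries of the OCT4 line, with changes of -0.36 and -0.63 that did not pass the test (adjusted p = 0.586 and 0.124). The 24 h libraries were the lowest of both lines. The other losses in the SOX2 line, at -0.78 to -2.04, were Scd2 -10920, Dhcr7 +12141 and Fads1 -10516.

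Mvk +18466, in intergenic sequence downstream of the mevalonate kinase gene, fell at 24 h in all 3 lines. It went from 83.4 and 92 to 46.6 and 46.3 in the SOX2 line (-0.91 ± 0.21, adjusted p = 0.0015), from 76.4 and 84 to 31.9 and 32.4 in the OCT4 line (-1.32 ± 0.28, adjusted p = 0.000433), and from 90.9 and 99.5 to 25.5, 43.1 and 35.6 in the NANOG line (-1.57 ± 0.26, adjusted p = 0.000127). NT and 24 h libraries did not overlap in any line. The other losses after NANOG removal were Fads1 -12983, described above, Fads1 +16084, from 117.6 and 91.6 to 62.6, 30.2 and 51.6 (-0.98 ± 0.25, adjusted p = 0.0176), and Srebf2 +5127, from 58.8 and 37.9 to 17.8, 38.8 and 18.4 (-1.22 ± 0.34, adjusted p = 0.0358). In the last of these the groups overlapped, through replicate 2. Without NT replicate 1 of this line these 3 calls were lost (adjusted p 0.489, 0.333 and 0.532), as they were in the fit of the NANOG line alone (0.073, 0.0589 and 0.0595), and each was lost without at least 1 of the 24 h libraries, whereas Mvk +18466 passed in every fit tried. After OCT4 loss Srebf2 +5127 fell as well, from 38.2 and 35.6 to 20.3 and 17 (-0.97 ± 0.37, adjusted p = 0.0491), a call lost with DESeq2 (0.13) and without any of the NT and 24 h libraries (0.0996 to 0.209).

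Among the other distal gains in the SOX2 line at 24 h, the log2 fold change was 1.51 at Mvk -12318, 1.29 at Msmo1 +17029 and 1.04 at Idi1 +8347, the last near the isopentenyl diphosphate isomerase. Their NT levels were low, at 7.8 and 5.7, 5.2 and 12.7, and 13.9 and 8.5 normalized counts. With DESeq2 these calls were lost (adjusted p = 0.115, 0.202 and 0.201). In the OCT4 line the log2 fold change was 1.42 at Nsdhl -10042 and 1.33 at Hsd17b7 -11555, both near genes for enzymes of sterol demethylation, and 1.13 at Fads1 -5821. Nsdhl -10042 was low too, at 9.4 and 7.4 in NT and 30.4 and 13.9 at 24 h. Sc5d -11518, near the lathosterol desaturase gene, had 0.87 in the SOX2 and 1.15 in the OCT4 line. Single libraries moved several of these values: Msmo1 +17029 fell to 0.65 without NT replicate 1 (adjusted p = 0.464) and 0.82 without 24 h replicate 2 (0.338), Nsdhl -10042 to 0.75 without 24 h replicate 1 (0.462), and Hsd17b7 -11555 to 0.71 without NT replicate 2 (0.177). The calls at Mvk -12318, Idi1 +8347, Fads1 -5821 and Sc5d -11518 were each lost without at least 3 of the 4 NT and 24 h libraries of the line (adjusted p 0.0504 to 0.235). Scd2 +13980 went from 85.1 and 100.5 normalized counts in NT to 177.6 and 178.5 at 24 h in the SOX2 line (0.95 ± 0.19, adjusted p = 0.000153) and passed in every fit tried. Its libraries overlapped in the OCT4 line, at 121.6 and 56.9 in NT and 87 and 75.7 at 24 h (-0.11 ± 0.37, adjusted p = 0.877). With DESeq2, 4 of the 16 distal gains in the SOX2 line passed the test, whereas 10 of the 11 losses did.

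The Hmgcs1 +19752 peak lay 1871 bp past the 3′ end of Hmgcs1, and the peaks past the ends of member genes were therefore described together after the values had been seen. There were 18 distal members within 3 kb past the 3′ end of their own gene, the Hmgcs1 peak among them, of which 16 were tested in the SOX2 line. The median log2 fold changes of these 16 were 0.14, 0.43 and 0.39 at 0.5, 1 and 2 h, the contrasts behind the choice of the genes, and 0.11 and 0.49 at 6 and 24 h, where all 7310 non-promoter peaks so placed and tested had 0.06 and 0.10. They included Insig1 +9483, which changed by 0.84, 0.18 and 0.72 on the log2 scale at 2, 6 and 24 h. Of the 16, 12 had a positive change at 24 h in the SOX2 line. The falls at 24 h included Ebp +10134 at -1.85, Sqle +18855 at -1.17 and Mvk +18466 at -0.91. At 2, 6 and 24 h, the medians of the 18 peaks were 0.37, 0.21 and -0.09 in the OCT4 line and 0.29, 0.21 and -0.14 in the NANOG line. All 7541 non-promoter peaks so placed and tested had 0.0, -0.03 and -0.09 in the OCT4 line and 0.07, 0.07 and 0.05 in the NANOG line.

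Other genes of lipid synthesis and sterol transport moved in the same range at their promoters. Of 26 such genes, 24 had a promoter peak, of which 5 gained and 1 lost at 24 h in the SOX2 line (median 0.35), beside 21.5% and 3.93% of all promoter peaks. In the OCT4 line 16 gained and 1 lost (median 0.71), beside 41.3% and 3.45%, and the NANOG line had no call (median 0.12). The loss in both lines was Abcg1, a sterol exporter, at -0.56 in the SOX2 and -0.81 in the OCT4 line. Soat1, which esterifies cholesterol, rose by 0.85 and 1.45, and Elovl6, a fatty acid elongase, by 0.55 and 1.13, on the log2 scale. All promoter peaks had medians of 0.30 and 0.55 in these lines.

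At the limit of the window, the members farthest out were Fdft1 at 19922 bp, with a log2 fold change at 24 h in the SOX2 line of -1.35, and Hmgcs1 at 19752 bp. The Fdft1 peak was low, at 7.8 and 7.1 normalized counts in NT and 3.9 and 1.9 at 24 h, and was not among the called losses. The nearest peaks outside were 20177 bp from Lss (-0.96) and 20348 bp from Sqle (-3.30).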

How the data were processed

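ATAC-seq, which counts DNA fragments cut out of open chromatin by a transposase, was used on 31 of the 45 samples. The other 14 (overexpression, regulatory element knockout and washout) have no column in the count table and were not analysed here. The authors aligned reads to mm10 with BWA (0.7.17-r1188), kept mapping quality of at least 10 with SAMtools (1.10), removed duplicates with Picard (2.12.0), called peaks on merged data with MACS2 and deposited raw counts of fragments per peak. The deposited peak list also holds the fold enrichment (a ratio) and the −log10 q-value of each peak, and its summit.

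Here, edgeR (4.0.16, R 4.3.3) quasi-likelihood tests with TMM scaling and Benjamini-Hochberg adjustment over all peaks were used, with a threshold of 0.05. The SOX2-FKBP times were fitted on 12 libraries, over the 160432 peaks that exceeded 10 counts in more than 2 of them. The other contrasts, and the difference between lines, were fitted on 27 libraries of the 3 lines, over the 166430 peaks that exceeded 10 counts in more than 6. Of the 177 members, 159 and 164 passed these filters. DESeq2 (1.42.0), the test in the study's methods, was an alternative. Levels are counts scaled by the effective library size, and intervals and SEs cover only the spread between libraries.

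Genes and gene lists were chosen with earlier results of these data known. Named with values were all Hmgcs1 peaks, promoters of the SREBP regulators, up to 6 called peaks with the largest rise or fall at 24 h in each line (mean of at least 20 in the higher group, treated and NT libraries apart) and peaks called alike in more than 1 line. Other named peaks were chosen after their values were seen. Peaks past 3′ ends and the sequence family were chosen after their values were seen. Deviations of same-numbered libraries from their group means were correlated over peaks. Between NT and treated groups this gave 0.12 to 0.16 in the SOX2, 0.35 to 0.49 in the OCT4 and 0.02 to 0.13 in the NANOG line. Between treated groups it gave 0.12 to 0.34, 0.22 to 0.49 and 0.35 to 0.41. The numbers were taken to pair NT with treated libraries in the SOX2 and OCT4 lines and not in the NANOG line. In the SOX2 line this pairing was weak and close to that of the NANOG line, so its p-values with the replicate block rest on little evidence of pairing.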

Additional observations from a re-analysis of the deposited data

Results flagged for a closer look

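At 4 distal peaks the change at 24 h differed between the OCT4-FKBP and the SOX2-FKBP line by the edgeR test of the difference itself. The difference (OCT4 minus SOX2, log2) was 2.46 at Cyp51 -2522 and 2.32 at Fads1 -12983, where the loss was larger after SOX2 removal. It was 2.46 at Insig1 -15703, where the gain was larger after OCT4 removal, and -1.49 at Ebp +10134, where the loss was larger after OCT4 removal. Parental cells and degraded factor cannot be told apart in these differences.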

How the results depend on the processing

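No result changed direction past the threshold under any alternative tried. With DESeq2, members gained in the SOX2 line were 2 (of 6) at 2 h and 8 (of 35) at 24 h, the NANOG gain at 24 h was 0 and the lower call between lines was 0. With GC offsets, gains at 24 h were 16 in the SOX2 and 15 in the OCT4 line and the promoter medians 0.11 and 0.22. The 27-library fit gave 1 gained and 4 lost at 2 h and 7 gained at 24 h in the SOX2 line, with a promoter median of 0.44. Fits of a line alone gave 3 gained at 2 h and 18 at 24 h in the OCT4 line, and 0 gained and 2 lost at 24 h in the NANOG line. With total counts, which moved the median of all peaks in the OCT4 line at 24 h to -0.14, the NANOG gain was 0 and the lower calls between lines 2. With at least 10 counts in every library, 2 gained at 2 h in the OCT4 line, 0 gained and 2 were lost at 24 h in the NANOG line, 1 was higher between lines, and the SOX2 promoter median was 0.36.

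With the replicate block, which pairs samples by number, the OCT4 line had 13 gained and 4 lost at 2 h and 18 lost at 24 h. The NANOG line had 5 gained and 2 lost at 2 h and 2 gained at 24 h, Hmgcs1 +19752 among them (0.97, adjusted p = 0.0266), although numbers did not pair its NT with its treated libraries. Between lines, 7 peaks were lower. With the block and GC offsets these were 15 and 6, 19, 5 and 1, 3, and 6, with 5 higher between lines and promoter medians of 0.12 (SOX2) and 0.21 (OCT4). A window of 10 kb gave 2 gained and 1 lost at 2 h and 19 gained and 1 lost at 24 h in the SOX2 line, 2 and 0 at 2 h and 3 lost at 24 h in the OCT4 line, 1 lost at 24 h in the NANOG line, and 1 higher and 0 lower between lines.

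Leaving out 1 library gave 2 to 6 gained and 5 to 7 lost at 2 h and 6 to 33 gained and 10 to 11 lost at 24 h in the SOX2 line. It gave 2 to 7 gained and 1 to 2 lost at 2 h and 7 to 31 gained and 8 to 12 lost at 24 h in the OCT4 line, 0 gained and 0 to 1 lost at 2 h and 0 to 1 gained and 1 to 4 lost at 24 h in the NANOG line, and 2 to 4 higher and 0 to 1 lower between lines. Promoter medians ran from 0.33 to 0.40 (SOX2), 0.42 to 0.82 (OCT4) and 0.07 to 0.26 (NANOG). Where a group is left with 1 library, that library is assumed to vary like the others. The causes of these shifts were not tested. The depth of 18 members in the SOX2 line and 13 in the other lines was too low for a test.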
